A study of Mus musculus with 20 samples.

Results

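The 5 HFD control livers of the study are described on their own, out of 20 livers in 4 groups of 5. They came from male C57Bl/6J mice that ate a high-fat diet (HFD), with 42% of its calories from fat, for 12 weeks from the age of 8 weeks. Corn oil was given once by gavage at 10 weeks of age, and the mice were fasted for about 6 h before the livers were taken. The other 3 groups ate the same diet and received polychlorinated biphenyls (PCBs), and they are not compared here. The 5 libraries were chosen by their control label alone, and mice 1 to 5 carry the replicate numbers of that label. No lean-diet mice are among the 4 groups, and liver fat was not measured in these data, so the values describe livers on this diet and say nothing of what the diet did.

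The hepatocyte makes most of the proteins of blood plasma, packs lipid into lipoproteins, stores surplus fatty acids as triglyceride in droplets, burns fatty acids during a fast, and oxidises foreign compounds with cytochrome P450 enzymes. In the mouse liver a large group of transcripts also differs between the sexes, because growth hormone is released in pulses in males and more evenly in females, and the transcription factor STAT5B passes this pattern on. Other transcripts follow the last meal, the time of day, inflammation elsewhere in the body or handling of the tissue, and these are the programmes in which animals of one strain and diet can differ.

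Polyadenylated RNA was sequenced and the deposited values are raw read counts per gene. The total count per library was 36854887, 33848114, 27360526, 21836506 and 24137270 in mice 1 to 5, and 14701 to 15453 of the 21780 genes in the table had a count. Levels are given as CPM, counts relative to the library total after TMM normalization, a scaling that aligns most genes between libraries. At 5 CPM a gene had 112 to 192 counts in each library. No pair of libraries was a repeat of the same counts: over the 10 pairs the chi-square per degree of freedom was 30.6 (mice 1 and 2) to 236 (mice 1 and 4).

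Library properties differed between the mice, and they bear on each result below. A gene's log2 deviation from its 5-mouse mean was regressed on its GC content, and the slope for a step of 10 percentage points came to 0.25 in mouse 1, 0.12 in mouse 2, −0.017 in mouse 3, −0.28 in mouse 4 and −0.076 in mouse 5. The order of the slopes therefore runs from mouse 1 to mouse 4, and both deeper libraries had the positive slopes. The library of mouse 4 stood apart. It was the most distant from the median of the 5 mice for 35.6% of the genes at 5 CPM or more, against 8.13% to 23.7% for each of the other 4 mice. It also held transcripts of the adrenal gland, which are described further on, and counts of variable genes are given with and without it.

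Hepatocyte transcripts led the table in each mouse. Alb, the gene of serum albumin, was measured at 66015, 66199, 58543, 69043 and 59690 CPM in mice 1 to 5, or 63898 ± 4545 CPM (SD, n = 5), and was the highest gene in the table (ENSMUSG00000029368; chromosome 5, from 90460897 to 90476602, plus strand, GRCm38). Apoa1, the main protein of high-density lipoprotein, was measured at 6520, 5410, 7858, 8694 and 8439 CPM, or 7384 ± 1387 CPM, and ranked 10 by mean CPM (ENSMUSG00000032083; chromosome 9, from 46228580 to 46230466, plus strand). The highest Alb value was 1.18 times the lowest and the highest Apoa1 value 1.61 times the lowest. The 9 hepatocyte markers, summed, ranged from 102944 CPM in mouse 5 to 111247 CPM in mouse 4. Alb was the largest part of this sum, and single markers varied more. Cps1 (3.62-fold), Hnf4a (2.16-fold) and Ttr (2.05-fold) had a highest mouse at least 2 times the lowest. These are 3 of 9 markers (33.3%, beside 15% of all genes), and 2 of 9 without mouse 4 (22.2%, beside 8.36%).

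A small number of genes took much of the counts analysed in each library. These counts include 1 of 79 cytosolic ribosomal protein genes and none of 13 mitochondrially encoded mRNAs. Shares and CPM are therefore relative to a total without them. The 10 genes with the highest mean CPM held 18.5% ± 0.969 of the counts (SD, n = 5; lowest 17.2% in mouse 5, highest 19.8% in mouse 1), and the 100 highest held 44.0% ± 0.469. In each mouse, 146 to 157 genes together held 50% of the counts. The 49 plasma proteins on the list alone summed to 218478 ± 6593 CPM, 21.8% ± 0.557 of the counts. Of the 48 at 5 CPM or more, 10 had a highest mouse at least 2 times the lowest (20.8%, beside 15% of all genes). That number was 7 without mouse 4 (14.6%, beside 8.36%) and 4 without mouse 1. After the libraries were corrected for GC content it was 5 of 48, beside 12.1% of all genes. The sum had the smallest range of the programmes summed here, with a highest mouse 1.07 times the lowest.

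Behind Alb, the order by mean CPM mixed secreted proteins with enzymes of fat and drug metabolism. Scd1, the stearoyl-CoA desaturase that makes monounsaturated fatty acids for storage, came next at 24580 ± 8135 CPM, with 32774, 25433, 29938, 11705 and 23049 CPM in mice 1 to 5. Mouse 4 was the lowest for Scd1 by a wide margin, and the other 4 mice lay within a 1.42-fold range. Cyp2e1, an ethanol- and fatty-acid-oxidising P450 of pericentral hepatocytes, was measured at 18142 ± 1296 CPM and ranged only 1.20-fold. Apoe followed at 14869 ± 3733 CPM, Serpina3k, a serine protease inhibitor of plasma, at 14351 ± 4341 CPM, and Mup3, a major urinary protein, at 12594 ± 3168 CPM. Apoa2 (11779 ± 1987 CPM), the fatty acid binding protein gene Fabp1 (9465 ± 1070 CPM) and the vitamin D binding protein gene Gc (7512 ± 287 CPM) came before Apoa1. The list of 15 was completed by Apoc1, Ahsg, Ttr, Selenop and Serpina1b, each between 6070 and 7115 CPM.

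**Figure D1:**
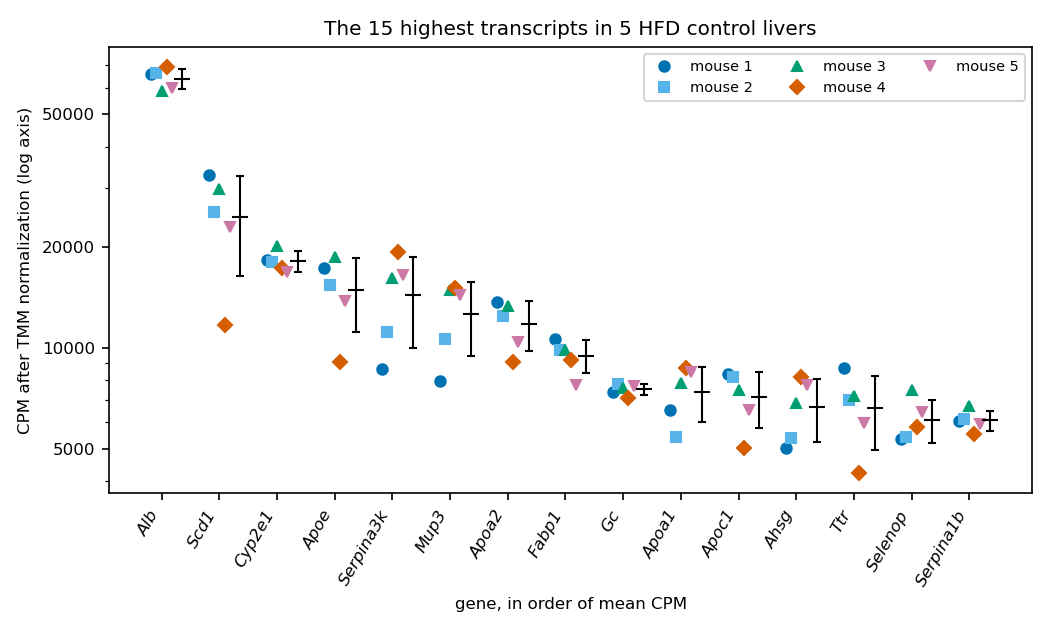
CPM of the 15 transcripts with the highest mean, on a log axis, with 1 symbol for each of the 5 HFD control mice and the mean ± SD in black to the right. Alb is set apart at 58543 to 69043 CPM, Gc and Serpina1b hardly vary, and the Scd1, Apoe and Ttr symbols of mouse 4 (11705, 9081 and 4227 CPM) lie below those of the other 4 mice.

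The spread of these leading genes was unequal. Gc had a coefficient of variation of 3.82% over the 5 mice, Serpina1b 6.96%, Alb 7.11% and Cyp2e1 7.14%. Scd1 had 33.1%, Serpina3k 30.2%, Mup3 25.2%, Apoe 25.1% and Ttr, the thyroid hormone and retinol carrier transthyretin, 24.97%. Counting error was far smaller than any of these values at such levels. For Serpina3k mouse 1 was lowest at 8660 CPM and mouse 4 highest at 19350 CPM, while Apoe and Ttr were lowest in mouse 4 (9081 and 4227 CPM).

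Scaling to exon length changed the order, since long and short transcripts give unequal counts for the same number of molecules. On this per-length scale, CPM divided by exon length and rescaled to the same total, Alb stayed first at 66723 ± 7701 (SD, n = 5), with Apoa2 at 53433 ± 8978 and Fabp1 at 41804 ± 5600 close behind. Mup3 (28610), Apoc1 (23322), Cyp2e1 (20476), Serpina3k (16946), Apoe (16886), Apoa1 (14529) and Ttr (13563) completed the 10 highest. Scd1 moved down to rank 12 with 12208. These 10 genes held 29.6% ± 1.55 of the length-scaled total, and 49.4 ± 3.36 genes held 50% of it. Apoa2 and Fabp1, short transcripts of lipid transport, moved up on this scale.

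Spread between mice was described for the 8901 genes with a mean of at least 5 CPM, by the SD of log2 CPM and by the ratio of the highest to the lowest mouse. The median SD was 0.22, and 10% of the genes lay below 0.098 and 10% above 0.47. A range of at least 2-fold was found in 1332 genes, or 15%, and a range of at least 10-fold in 61. The common biological coefficient of variation from edgeR was 25.5%. Without mouse 4, 741 of 8863 genes (8.36%) had a 2-fold range and 23 a 10-fold range, the median SD was 0.19 and the coefficient was 19.6%. After correction of each library for its GC trend, 1074 genes (12.1%) had a 2-fold range, with a median SD of 0.20. The counts of list members are read beside 15% for all mice and 8.36% without mouse 4. For the other omissions only the number of all genes with a 2-fold range is given, not the share. It was 998 without mouse 1, 1234 without mouse 2, 1187 without mouse 3 and 1172 without mouse 5, beside 1332 for all mice. A gene's range scarcely changes unless the mouse left out was its highest or lowest, and then it falls. For a list with 1 mouse highest or lowest in most members, a lower count without that mouse is therefore no separate result.

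**Figure D2:**
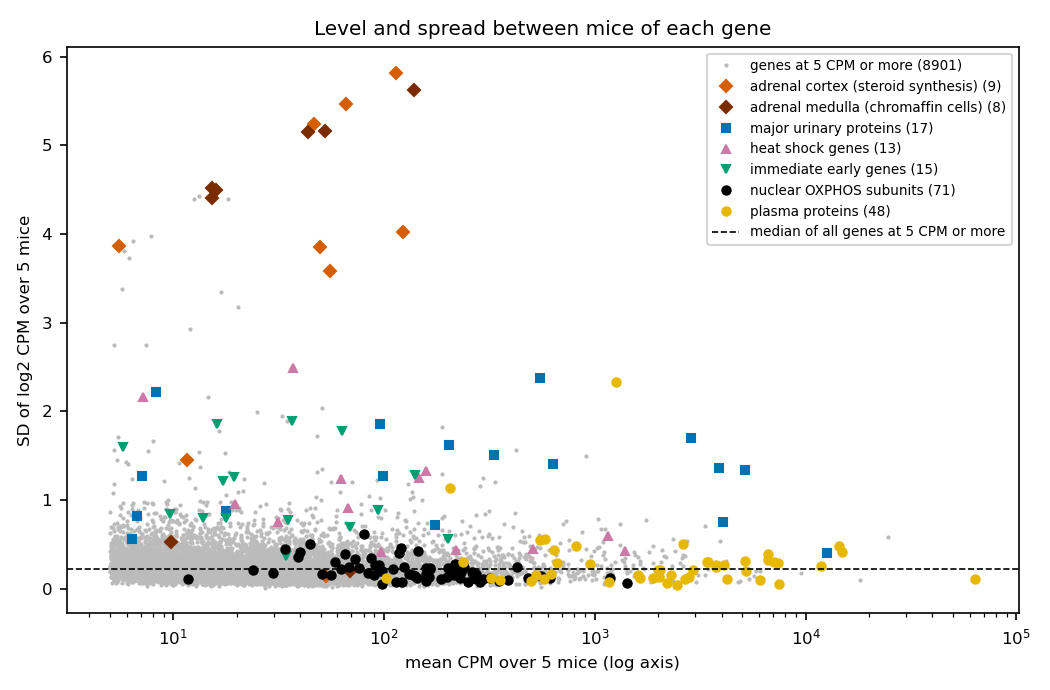
Mean CPM of each gene over the 5 mice (log axis) against the SD of its log2 CPM, with 8901 genes at 5 CPM or more in grey and members of 7 lists in colour, and the median of 0.22 as a dashed line. Adrenal genes reach an SD of 5.82 because of mouse 4, urinary protein, heat shock and immediate early genes lie mostly above the median, and most plasma protein and oxidative phosphorylation genes lie near it.

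The ranking by smallest spread was led by Rreb1. This gene of a zinc finger transcription factor had 26.9, 27.3, 27.0, 27.0 and 27.3 CPM in mice 1 to 5 and an SD of log2 CPM of 0.0099, the smallest of all. Slc35f5, Marc1, Ddx39, Ppp2r5c, H13, Slc6a16, Cnbp, Fam114a2 and Ubxn1 followed, and none of these had a highest mouse more than 1.05 times the lowest. Marc1, a mitochondrial amidoxime reductase of hepatocytes, was the most abundant of the 10 at 555 ± 8.51 CPM.

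Genes at the other end of the ranking belonged almost entirely to 1 library. Of the 20 genes with the largest SD of log2 CPM, 18 were above all other mice in mouse 4 and at or near 0 in the rest, and the remaining pair was Moxd1 and Dmbt1. Genes of adrenal steroid synthesis led. Cyp11a1, which cuts the side chain of cholesterol, was measured at 330 CPM in mouse 4 and had no count in the other 4 mice. Hsd3b1 (570 CPM) and Cyp11b1 (233 CPM), the next enzymes on the path to corticosterone, and Nr5a1 (27.7 CPM), the transcription factor of steroid-producing cells, also had no count in the other 4 mice. Star, which carries cholesterol into mitochondria, was measured at 613 CPM in mouse 4 and at 0.814 to 1.90 CPM in the others. Transcripts of chromaffin cells, the catecholamine-producing cells of the adrenal medulla, came with them. The secretory granule genes Chgb, Scg2 and Chga had 695, 263 and 218 CPM in mouse 4 and at most 0.0862 CPM elsewhere, and Th and Dbh, which make catecholamines, had 80.1 and 76.3 CPM against at most 0.0388 CPM.

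The adrenal genes on the lists held a small part of the mouse 4 counts. The share of all adrenal RNA in that library was not estimated. The 11 cortex genes on the list summed to 2405 CPM in mouse 4 and 57.2 to 69.1 CPM in the other 4 mice, and the 13 medulla genes to 1521 against 63.0 to 91.0 CPM. Most of the background sum came from Mrap and Ddc, which were measured in all 5 livers (47.4 to 61.7 and 56.4 to 82.4 CPM). Some fat and muscle transcripts were highest in the same library. Ucp1, the uncoupling protein of brown fat, was measured at 29.1 CPM in mouse 4 and at most 0.0776 CPM in the others. The fatty acid carrier gene Fabp4 was measured at 171 CPM against 22.7 to 32.6 CPM. Not every fat marker shared this pattern. Cfd, the adipocyte protease adipsin, had 29.0 CPM in mouse 4 and 89.3 to 250 CPM in the others, and Car3, a carbonic anhydrase that hepatocytes also make, had 1368 CPM against 2846 to 4379 CPM. The 6 skeletal muscle genes summed to 66.3 CPM against 0.773 to 1.51 CPM. The adrenal, brown fat and smooth muscle lists were drawn up after these values were seen. Their part in the other differences of mouse 4 was not tested.

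**Figure D3:**
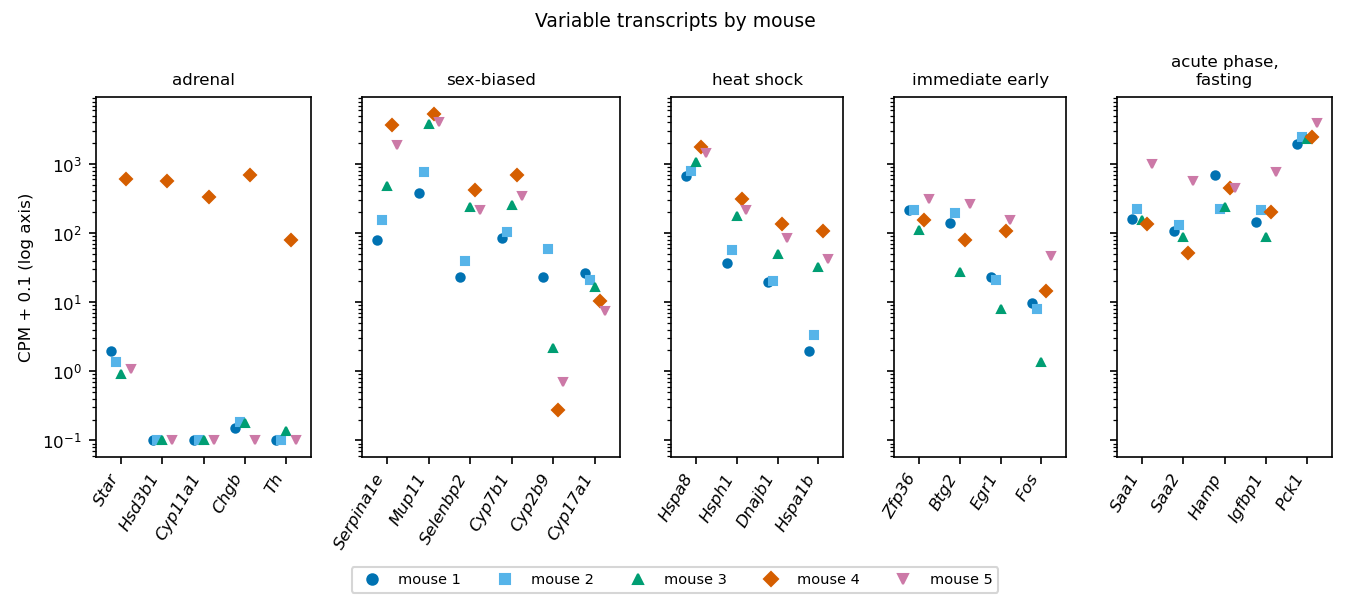
CPM plus 0.1 on a log axis for 24 transcripts in 5 panels, with 1 symbol for each mouse. Adrenal transcripts are present in mouse 4 and at or near 0 in the other mice, male-biased and heat shock genes are lowest in mouse 1, Fos and Btg2 are lowest in mouse 3, and Saa1, Saa2, Igfbp1 and Pck1 are highest in mouse 5.

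Ranking without mouse 4 put other genes forward, and 2 of the 20 were shared with the ranking of 5 mice. Moxd1 was measured at 0.0260, 0.0286, 5.16, 61.2 and 24.2 CPM in mice 1 to 5, and Dmbt1, a secreted scavenger-receptor protein of epithelia, had 26.8 CPM in mouse 5 and no count in the other mice. Beyond this pair, the list held 5 major urinary protein genes, Serpina1e, Selenbp2 and Cyp2b9, which are sex-biased in mouse liver, the immediate early genes Atf3, Fos, Egr1, Nr4a1 and Gadd45b, the heat shock gene Hspa1b, Hamp2, Pdk4, Foxq1 and the smooth muscle myosin gene Myh11. Nr4a1, Foxq1, Moxd1 and Dmbt1 are on none of the gene lists.

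Sex-biased genes varied widely, although all 5 mice were males. Of the 17 male-biased genes on the list, all of which reached 5 CPM, 16 (94.1%) had a 2-fold range, beside 15% of all genes, and the median SD of log2 CPM was 0.84. Without mouse 4 it was again 16 of 17, beside 8.36%. Their summed level was 5594 CPM in mouse 1, 7588 in mouse 2, 14241 in mouse 3, 21853 in mouse 4 and 19650 in mouse 5. Mouse 1 was the lowest for 15 of the 17 genes and mouse 2 for the other two. Mice 3, 4 and 5 thus lay above mice 1 and 2 in the sum.

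Serpina1e, an alpha-1 antitrypsin paralog, varied most of the plasma proteins, at 80.5, 156, 487, 3661 and 1913 CPM in mice 1 to 5. Selenbp2, a selenium-binding protein, was measured at 22.8, 39.8, 235, 423 and 218 CPM, and Cyp7b1, the oxysterol 7-alpha-hydroxylase, at 86.0, 102, 257, 683 and 344 CPM. Each of these had its highest value in mouse 4 and its lowest in mouse 1. Hsd3b5, a liver 3-ketosteroid reductase of males, was measured at 40.8, 76.3, 178, 244 and 149 CPM. C8b, of the complement attack complex, was measured at 61.9, 88.2, 198, 411 and 274 CPM. The complement genes C6 and C8a, the organic anion transporter gene Slco1a1 and the fatty acid elongase gene Elovl3 ranged from 2.03-fold to 3.97-fold. Cyp2d9 was the exception, with 1041 to 1688 CPM and a 1.62-fold range.

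The major urinary proteins are pheromone carriers that male liver makes in bulk, and 5 of their genes (Mup1, Mup7, Mup12, Mup20 and Mup21) are also on the male-biased list. The 12 male-biased genes that are not urinary proteins summed to 2453, 3332, 5105, 9230 and 7158 CPM in mice 1 to 5. The 22 urinary protein genes summed to 12664, 18813, 38165, 42706 and 41027 CPM in mice 1 to 5, so mouse 4 had 3.37 times the sum of mouse 1. Of the 17 at 5 CPM or more, 16 had a 2-fold range, with and without mouse 4, and mouse 1 was the lowest for 16. Mup20, the pheromone darcin, was measured at 2344, 2088, 3462, 6030 and 6394 CPM. Mup17 had 943 CPM in mouse 1 and 7051 to 7741 CPM in mice 3, 4 and 5, and Mup7 had 679 CPM against 5275 to 5979 CPM. Mup1, Mup18 and Mup8 ranged from 12.99-fold to 25.4-fold. Mup11 was measured at 374, 775, 3748, 5339 and 3999 CPM and Mup9 at 20.1, 181, 1029, 681 and 841 CPM. Mup3, the member with the highest mean CPM, was the one under 2-fold, with 7978 CPM in mouse 1 and 15139 CPM in mouse 4. The coding sequences of these genes are nearly alike, so the split of reads between single members is uncertain. How reads that fit several members were counted is not given, so their sum may be affected too.

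Female-biased genes that reached 5 CPM ran the other way at low levels. Of 17 on the list, 4 reached 5 CPM and all 4 had a 2-fold range, with and without mouse 4. Cyp2b9, a P450 of female liver, was measured at 23.2, 58.4, 2.09, 0.179 and 0.604 CPM in mice 1 to 5. Cyp17a1, a steroid hydroxylase, was measured at 26.5, 20.7, 16.8, 10.3 and 7.46 CPM, and Abcd2, a peroxisomal fatty acid transporter, at 19.02, 12.5, 9.97, 5.19 and 4.48 CPM. The acyl-CoA thioesterase gene Acot3 was measured at 104, 61.4, 60.7, 11.4 and 17.5 CPM. Mice 1 and 2 were above mice 3, 4 and 5 for each of the 4, though mice 2 and 3 were nearly equal for Acot3. The other members were under 5 CPM, and their direction was not examined. The summed list had 180 and 164 CPM in mice 1 and 2 and 93.3, 49.1 and 34.8 CPM in mice 3, 4 and 5. Of the members under 5 CPM, Cyp3a41a and Sult2a1 stayed near 0 in every mouse, neither above 0.0520 CPM.

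Technical measures moved with the sex-biased genes. Mice 1 and 2 also had the positive GC slopes and the deepest libraries. The order of the mice by the male-biased and urinary protein sums was the reverse of that by GC slope and library total. The part of these measures in the differences was not tested. The urinary protein genes had a median GC content of 41.9%, beside 49.8% for all genes at 5 CPM or more, and the male-biased list 46.3%. After GC correction, a 2-fold range was found in 12.1% of all genes. It was found in 16 of 17 urinary protein, 15 of 17 male-biased and 4 of 4 female-biased genes. The median SD of log2 CPM of these lists, in that order, went from 1.34 to 1.20, from 0.84 to 0.63 and from 1.11 to 1.19. Among 10 genes of growth hormone signalling, chosen after the values were seen, Ghr and Igf1 ranged less than 1.48-fold. Socs2 and Cish, feedback inhibitors that STAT5 turns on, were highest in mouse 4. Socs2 was measured at 17.9, 8.87, 10.8, 72.9 and 24.5 CPM, and Cish at 32.6, 8.87, 6.32, 47.6 and 13.3 CPM.

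Fat synthesis genes did not vary as a block. Of 22 genes of fatty acid and triglyceride synthesis at 5 CPM or more, 11 (50%) had a 2-fold range, and 8 (36.4%) without mouse 4. Srebf1, the sterol and insulin responsive factor that drives the pathway, was measured at 165, 149, 81.0, 29.999 and 54.7 CPM in mice 1 to 5. Thrsp, a lipogenic protein induced by carbohydrate and thyroid hormone, was measured at 285, 328, 287, 25.8 and 78.9 CPM. Both were lowest in mouse 4, as was Scd1. The synthase gene Fasn did not follow them, at 85.9, 55.8, 58.6, 78.0 and 38.4 CPM, and Acly, which makes cytosolic acetyl-CoA, was highest in mouse 4 (94.0 CPM, others 44.0 to 57.8 CPM). Acaca, the carboxylase of the first committed step, ranged 1.28-fold. The mean of Fasn was 63.3 ± 18.9 CPM and that of Acaca 38.5 ± 4.03 CPM. Per length, Scd1 stood at 12208, Fasn at 14.2 and Acaca at 5.52.

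Lipid droplet and fatty acid uptake genes held steady and variable members. Of 24, 10 (41.7%) had a 2-fold range, and 4 (16.7%) without mouse 4. Plin2, the coat protein of hepatocyte droplets, was measured at 1141, 1093, 1118, 1285 and 1274 CPM and ranged 1.18-fold. Hsd17b13, Slc27a2, Slc27a5, Abhd5 and Pnpla2 also ranged no more than 1.33-fold. The droplet-fusing protein genes Cidec and Cidea, markers of fat-laden hepatocytes, were measured at 113 ± 27.0 and 62.0 ± 22.4 CPM, and Pparg at 27.9 ± 3.74 CPM. G0s2, an inhibitor of the lipase of droplets, was measured at 135, 101, 123, 29.9 and 34.9 CPM, so that mice 4 and 5 lay below the others. The monoacylglycerol acyltransferase gene Mogat1 was measured at 18.6, 18.3, 17.8, 3.93 and 8.45 CPM, with mice 4 and 5 again lowest.

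Fatty acid oxidation had a constant core and a variable edge. Of 34 genes, 10 (29.4%) had a 2-fold range, 7 (20.6%) without mouse 4 and 6 without mouse 1, with a median SD of 0.22. Acadl, Acadvl, Decr1 and Vnn1 ranged no more than 1.19-fold. Cpt1a, the gate of fatty acids into mitochondria, was measured at 879 ± 88.1 CPM. The omega-hydroxylase genes Cyp4a10 and Cyp4a14 were lowest in mouse 1 (1596 and 1388 CPM) and highest in mouse 4 (4081 and 3931 CPM), and so was Ehhadh of the peroxisome (673 and 1717 CPM). Pdk4, the kinase that shuts off pyruvate oxidation in fasting, varied most, at 11.1, 35.0, 6.98, 54.4 and 134 CPM. The receptor gene Ppara was measured at 39.9, 61.0, 77.8, 76.5 and 95.9 CPM.

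Cholesterol synthesis was low, with the list at 1443 ± 211 CPM in sum. Of 19 members, 8 had a 2-fold range, but 2 without mouse 4 (10.5%, beside 8.36%). Lss, which closes the sterol rings, was measured at 11.8 ± 0.383 CPM. Cyp51 was highest in mouse 4, at 36.5 CPM against 12.2 to 17.9 CPM in the others. In bile acid metabolism, 6 of 16 genes had a 2-fold range, and 3 without mouse 4. Cyp7a1, the rate-limiting enzyme of bile acid synthesis, was measured at 139, 105, 343, 254 and 98.1 CPM, and its repressor Nr0b2 at 21.5, 33.8, 27.4, 7.56 and 38.6 CPM. Mice 3 and 4 were highest for Cyp7a1. Nr0b2 was lowest in mouse 4, and Baat, which conjugates bile acids, ranged 1.08-fold.

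Among 34 cytochrome P450 genes, 10 (29.4%) had a 2-fold range, and 6 (17.6%) without mouse 4. The P450 sum was 29890 to 37618 CPM, of which Cyp2e1 was the largest part. Cyp3a11, the main drug-metabolising P450 of its family, was measured at 2593 ± 637 CPM. Cyp2a5 was measured at 1274, 1434, 1268, 127 and 456 CPM and Cyp2a22 at 101, 104, 32.4, 3.76 and 13.2 CPM, so that mouse 4 was lowest and mouse 5 next for both. Cyp1a1, the classical target of the aryl hydrocarbon receptor, stood at 0.224 to 0.935 CPM in these livers without PCBs, while Cyp1a2, which hepatocytes make constantly, was measured at 389 ± 101 CPM. Of 15 NRF2 antioxidant genes, 10 had a 2-fold range, and 8 of 14 without mouse 4. Akr1b7, which is also on the adrenal cortex list, reached 5 CPM only through mouse 4 (245 CPM, others 0.271 to 1.80 CPM). Gstm1, a glutathione transferase, was measured at 1865, 1351, 1008, 561 and 812 CPM, and Gstm3 at 64.6, 34.7, 15.8, 1.79 and 7.93 CPM. Gstp1 ran the other way, at 157 to 173 CPM in mice 1 to 3 and 374 and 414 CPM in mice 4 and 5. The metallothionein genes Mt1 and Mt2 were highest in mouse 5 (349 and 241 CPM) and lowest in mouse 4 (78.1 and 49.8 CPM).

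**Figure D4:**
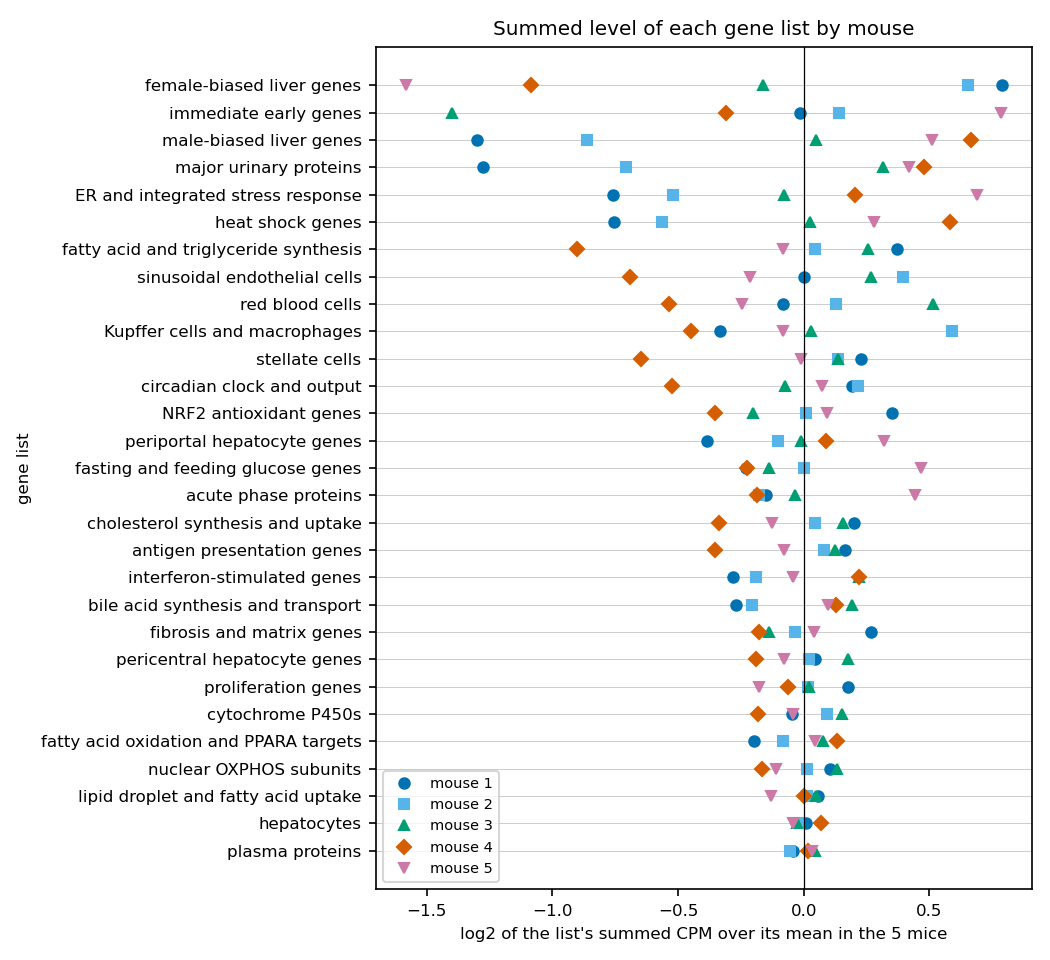
For each gene list with at least 4 members at 5 CPM or more, other than those drawn up after the values were seen (adrenal, brown fat, smooth muscle, growth hormone), the log2 of its summed CPM in each mouse over the mean of the 5 mice, 1 symbol per mouse, in order of range. Plasma proteins and hepatocyte markers lie close to 0 for every mouse, with ranges of 1.07-fold and 1.08-fold, while female-biased genes (5.18-fold), immediate early genes (4.54-fold), male-biased genes (3.91-fold) and urinary proteins (3.37-fold) spread widest of the lists plotted.

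Mouse 5 differed in genes of fasting and inflammation. Of 20 genes of glucose metabolism, 11 (55%) had a 2-fold range, 9 (45.0%) without mouse 4 and 7 without mouse 5, which was highest for 9. Igfbp1, which insulin represses, was measured at 145, 214, 87.8, 205 and 770 CPM in mice 1 to 5. Pck1, the gluconeogenic carboxykinase, was measured at 1927, 2492, 2308, 2450 and 3883 CPM, and Txnip at 157, 251, 140, 143 and 480 CPM. Each was highest in mouse 5. G6pc, which releases free glucose, split the mice differently, with 357 and 410 CPM in mice 3 and 4 and 689 to 1108 CPM in mice 1, 2 and 5. Irs2, also repressed by insulin, was highest in mouse 5 (81.4 CPM) and lowest in mouse 3 (15.05 CPM). Fbp1 ranged 1.17-fold. Tat, which breaks down tyrosine, was highest in mouse 5 (2106 CPM, others 863 to 1372 CPM), and Ppp1r3g, a glycogen-targeting phosphatase subunit, had 21.2 and 23.7 CPM in mice 3 and 4 and 94.7 to 111 CPM in the others.

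Acute phase proteins, which the liver releases in inflammation, showed the same mouse apart. Of 21 members, 14 (66.7%) had a 2-fold range, and 11 (52.4%) without mouse 4, and mouse 5 was highest for 14. Saa1, a serum amyloid A, was measured at 162, 223, 154, 135 and 1014 CPM and Saa2 at 107, 132, 86.9, 52.0 and 567 CPM. These paralogs are similar in sequence, so their split is uncertain. Serpina3n (803 CPM in mouse 5, 370 to 496 CPM in the others) and Itih4 (2307 CPM, others 1092 to 1549 CPM) were highest there too. Haptoglobin (Hp) and Orm1 ranged 1.74-fold and 1.26-fold. The iron hormone genes differed in another way. Hamp was measured at 703, 220, 238, 442 and 442 CPM and Hamp2 at 85.3, 52.4, 16.7, 5.10 and 4.05 CPM, both highest in mouse 1.

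Immediate early genes, which respond within minutes to signals or stress, varied in nearly every member. Of 15 genes at 5 CPM or more, 14 (93.3%) had a 2-fold range, with and without mouse 4, and the median SD of log2 CPM was 0.88. Their sum was 776, 863, 297, 633 and 1349 CPM in mice 1 to 5. Mouse 3 was the lowest for 14 of the 15 genes and mouse 5 the highest for 11. Fos was measured at 9.69, 7.90, 1.28, 14.6 and 47.0 CPM, Egr1 at 23.2, 21.1, 7.95, 108 and 155 CPM and Atf3 at 31.9, 66.9, 2.79, 15.6 and 66.1 CPM. Zfp36, a decay factor of cytokine mRNAs, was the most abundant at 202 ± 75.4 CPM, followed by Btg2, an antiproliferative gene, at 142, 194, 27.3, 80.4 and 261 CPM. Dusp1, a phosphatase of MAP kinases, was measured at 96.2, 91.0, 29.8, 53.8 and 72.3 CPM.

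Heat shock genes varied in a different order. Of 13 members, 11 (84.6%) had a 2-fold range, and 8 of 12 (66.7%) without mouse 4, with a median SD of 0.91. Mouse 4 was highest for 12 and mouse 1 lowest for 11. Hspa1b, an inducible HSP70 chaperone, was measured at 1.87, 3.23, 32.4, 106 and 41.6 CPM in mice 1 to 5. Hsph1 was measured at 36.2, 56.1, 176, 312 and 214 CPM, and Hsp90aa1 at 39.95, 51.3, 154, 286 and 202 CPM. The constitutive Hspa8 (669 to 1784 CPM) and Hsp90ab1 (946 to 1842 CPM) ranged less, at 2.67-fold and 1.95-fold. The mitochondrial chaperonin pair Hspd1 and Hspe1 had 508 ± 155 and 96.3 ± 28.3 CPM and ranged 2.15-fold and 1.96-fold. The 13 heat shock genes together summed to 2314, 2640, 3971, 5833 and 4738 CPM in mice 1 to 5. The order of the mice was the reverse of that of the GC slopes and library totals, whose part was not tested. After GC correction, 9 of the 13 had a 2-fold range, and the median GC content of the list was 49.5%.

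Promoter sequences are shown for some members of these stress programmes. A shared factor is known for each programme: HSF1 for heat shock genes and CREB for several immediate early genes. The genes shown were chosen for a match to the motif of that factor, not for varying together. Btg2 was highest in mouse 5 and Dusp1 in mouse 1. RefSeq promoters of GRCm38.p6, 250 bases before to 50 after each start, were searched on both strands. A heat shock element, taken as GAA, TTC and GAA with 2 free bases between neighbours, was found in 4 of 15 promoters of the 10 heat shock genes with an entry (26.7%), beside 0.603% of 32851 promoters. These matches lie at only 2 gene loci, since Hspd1 and Hspe1 share theirs and Hsph1 has 2 overlapping promoters with the same match. A cAMP response element, TGACGTCA, was found in 2 of 14 immediate early promoters (14.3%), beside 1.79% of all. In the windows below, each 30 bases long and read 5′ to 3′ on the strand of the gene, capitals mark the match. The Hspd1 window is chr1:55088050-55088079 on the minus strand and the Hspe1 window chr1:55088051-55088080 on the plus strand, so this gene pair shares the stretch between its starts. The Btg2 window is chr1:134079303-134079332 and the Dusp1 window chr17:26508597-26508626, both on the minus strand. A match describes letters, not binding.
Hspd1: gccttccgGAAGGTTCTAGAAcggaccgtg
Hspe1: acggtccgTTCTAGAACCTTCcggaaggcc
Btg2: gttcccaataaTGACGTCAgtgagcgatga
Dusp1: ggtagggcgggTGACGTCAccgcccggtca

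The STAT5 motif TTCNNNGAA, searched in the same way because sex-biased genes varied, was found in 1 of 10 male-biased promoters, 2 of 15 female-biased promoters and 0 of 14 urinary protein promoters, beside 8.30% of all promoters. Among growth hormone signalling genes it was found in 5 of 15 promoters, those of Bcl6, Cish and Igfals. Sequence farther from the start was not searched.

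Chaperones of the endoplasmic reticulum followed mouse 5. Of 16 genes of the ER and integrated stress response, 13 (81.2%) had a 2-fold range, and 12 (75%) without mouse 4. Mouse 5 was highest for 14 and mouse 1 lowest for 9. Hspa5, the main chaperone of the compartment, was measured at 490, 604, 921, 1412 and 1745 CPM, and Herpud1 at 322, 434, 609, 417 and 951 CPM. Hyou1, Manf, Creld2, Dnajb9 and Sdf2l1 had the same lowest and highest mice as Hspa5, with ranges from 3.07-fold to 4.56-fold. Other members had other orders. Atf4 ranged 1.62-fold, Trib3 was measured at 19.8, 19.8, 8.57, 4.605 and 13.5 CPM, and Gdf15, a stress hormone that was also highest in mouse 5, at 17.2, 30.9, 10.1, 6.62 and 42.6 CPM. Chac1 was highest in mouse 5, at 13.9 CPM against 2.64 to 4.88 CPM.

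**Figure D5:**
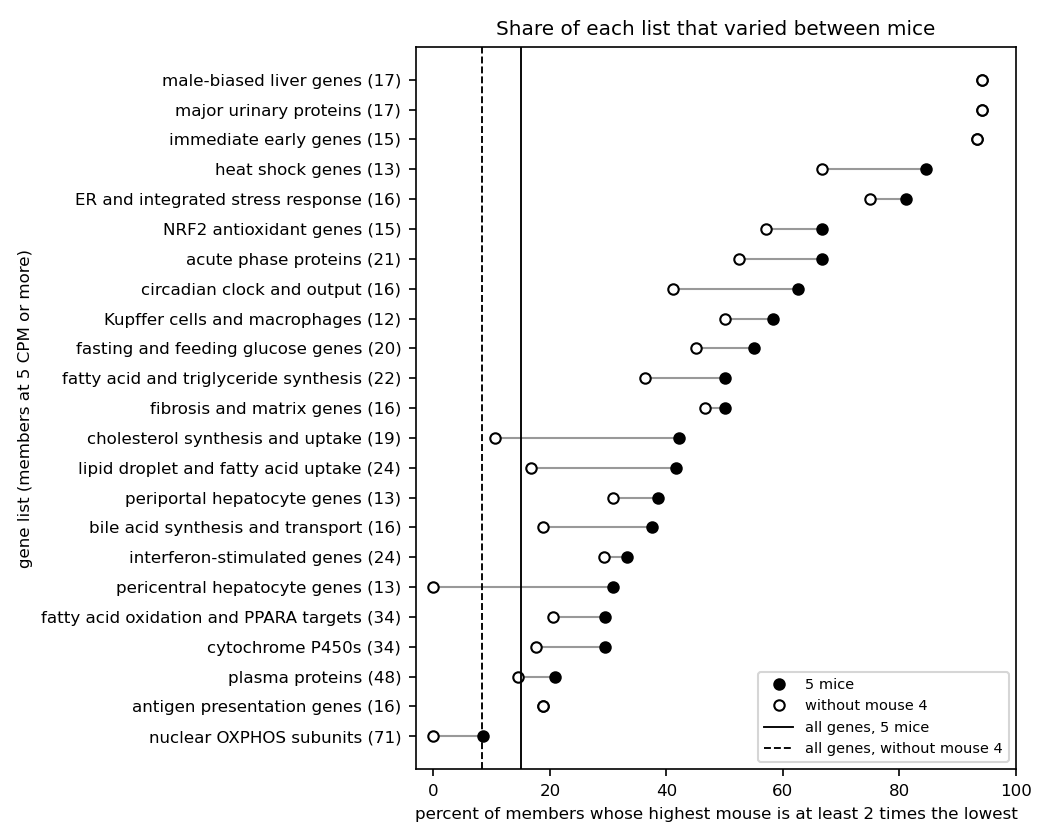
Percent of the members of each list with at least 10 members at 5 CPM or more (without the lists drawn up after the values were seen) whose highest mouse was at least 2 times the lowest, for 5 mice (filled) and without mouse 4 (open; a single circle means the same value), with all genes as vertical lines at 15% and 8.36%. Male-biased, urinary protein and immediate early genes stay at 93.3% or 94.1% in both, while oxidative phosphorylation and pericentral genes go to 0% without mouse 4.

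Clock genes had 10 of 16 members (62.5%) with a 2-fold range, and 7 of 17 (41.2%) without mouse 4. The core repressors Nr1d1 and Per2 ranged 1.15-fold and 1.21-fold. Their output genes varied more, with Dbp at 181, 135, 124, 59.5 and 74.1 CPM and Ciart at 23.3, 27.3, 22.6, 2.06 and 12.4 CPM in mice 1 to 5. Mouse 4 was lowest for 11 of the 16 clock genes. Arntl and Npas2, of the opposite phase, did not go above 4.11 CPM in any mouse.

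Pericentral and periportal hepatocytes divide the metabolic work of the lobule between them. None of 13 pericentral genes had a 2-fold range without mouse 4, and 4 had it with mouse 4, which was the lowest for 10 of the 13. Glul, the glutamine synthetase of the cells around the central vein, was measured at 1634 ± 292 CPM, and Lect2, a secreted protein, at 286, 252, 232, 95.0 and 154 CPM. Of 13 periportal genes, 5 had a 2-fold range, 4 without mouse 4, and 2 without mouse 1 or without mouse 5. Cps1, the first enzyme of the urea cycle, was measured at 751, 1092, 1920, 2722 and 2302 CPM, in the order of the urinary proteins, while its partners Otc, Ass1 and Arg1 ranged 1.13-fold to 1.25-fold. Nuclear genes of oxidative phosphorylation had 6 of 71 (8.45%) over 2-fold, and 0 without mouse 4. The synthase subunit Atp5b was measured at 1424 CPM on average and ranged 1.11-fold, and Uqcr11 varied most, at 38.4 CPM in mouse 4 and 69.2 to 114 CPM in the others.

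Other cell types of the liver were measured at low levels and with their own patterns. In bulk RNA, fewer cells of a type and less RNA per cell cannot be told apart. Kupffer cell markers were highest in mouse 2 for 12 of 12 genes, with a sum of 753 CPM against 367 to 510 CPM in the other mice. A 2-fold range was found in 7 of the 12, in 6 without mouse 4 and in 2 without mouse 2. Among all genes, the number without mouse 2 was 1234, beside 1332 with all mice. Clec4f, a lectin of Kupffer cells, was measured at 75.3, 152, 91.1, 68.4 and 101 CPM, Cd5l at 84.7, 174, 107, 68.2 and 103 CPM and Timd4, of resident cells, at 3.58, 10.7, 7.10, 5.68 and 6.55 CPM. Cd74, the invariant chain of class II antigen presentation, was also highest in mouse 2, at 153 CPM, with 75.2 to 99.99 CPM in the others. B2m, the light chain of class I molecules, was measured at 1991 ± 174 CPM and H2-Q10, a secreted class I protein of liver, at 2121 ± 514 CPM. Of 16 antigen presentation genes, 3 had a 2-fold range (18.8%), as without mouse 4, but 1 without mouse 2, without mouse 5 or after GC correction. Markers of lipid-associated macrophages stayed low, with Trem2 at 0.474 to 1.74 CPM and Gpnmb at 0.465 to 2.13 CPM outside mouse 4, which had 6.93 CPM. Spp1, shared with bile duct cells, ranged 1.08-fold at 64.3 CPM.

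Sinusoidal endothelial markers were lowest in mouse 4 for 8 of 8 genes, with a sum of 123 CPM against 171 to 261 CPM, and 4 of 8 had a 2-fold range, or 1 without mouse 4. Stellate cell markers summed to 226 CPM in mouse 4 and 351 to 414 CPM in the others. Most of the sum was Dcn and Ecm1. Of 7 members at 5 CPM or more, mouse 4 was lowest for 5 and mouse 3 for 2, and 3 had a 2-fold range, or 1 without mouse 4 and 5 after GC correction. Des, desmin, had 6.44 CPM in mouse 4, above mice 1 to 3 (2.99 to 4.05 CPM) and below mouse 5 (13.4 CPM). Stab2 and Fcgr2b, scavenger and Fc receptors of sinusoidal cells, had 28.3 and 23.2 CPM in mouse 4 against lowest values of 44.0 and 31.2 CPM elsewhere. The retinol-storing enzyme gene Lrat was measured at 17.6, 17.3, 15.6, 7.33 and 11.5 CPM. Of 16 fibrosis and matrix genes, 8 had a 2-fold range, 7 of 15 without mouse 4, and 5 without mouse 1 or without mouse 5. Mouse 1 was highest for 8 of the 16, mouse 4 for 5 and mouse 5 for 3, while mouse 3 was lowest for 7 and mouse 4 for 5. Col1a1 was measured at 14.7, 7.56, 5.62, 3.98 and 8.02 CPM and Col3a1 at 58.3, 39.2, 24.4, 16.7 and 33.1 CPM, both highest in mouse 1 and lowest in mouse 4. Thbs1, a matrix glycoprotein, ran otherwise, at 1.92, 1.32, 1.24, 10.998 and 10.6 CPM. Smooth muscle genes set mouse 5 apart. Acta2 was measured at 35.96 CPM in mouse 5 and 2.98 to 5.86 CPM in the others, Myh11 at 27.8 against 2.00 to 3.00 CPM, and Tagln at 26.2 against 6.90 to 12.1 CPM.

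Interferon-stimulated genes varied modestly, with 8 of 24 (33.3%) over 2-fold and mouse 3 highest for 15. Iigp1, an interferon-induced GTPase, was measured at 231, 260, 381, 466 and 396 CPM. Ifit1 was measured at 24.5, 20.1, 50.7, 39.2 and 24.7 CPM. Without mouse 4 the count was 7, and without mouse 3 it was 1. Among all genes, the number without mouse 3 was 1187, beside 1332 with all mice. The haemoglobin gene Hbb-bs was measured at 66.3, 82.4, 110, 37.7 and 33.1 CPM. Haemoglobin and Alas2 transcripts, the red blood cell markers, were highest in mouse 3 for 5 of 5 genes, with a sum of 372 CPM against 180 to 284 CPM. Alas2 was the largest part of the sum and had another order, at 128, 150, 180, 114 and 158 CPM in mice 1 to 5. Whether these values reflect blood left in the tissue was not tested. Genes of T and NK cells, B cells and neutrophils had no member at 5 CPM, with sums of 2.41 to 4.38, 2.95 to 10.05 and 2.68 to 8.07 CPM. Of the proliferation list, 4 of 30 genes reached 5 CPM and none had a 2-fold range, nor any of 6 without mouse 4. Pcna was measured at 16.5 ± 1.47 CPM and Mki67 at 1.52 to 4.81 CPM. The 12 pancreatic enzyme genes summed to 15.4 to 22.5 CPM. Most of this was Cela1, measured in every liver at 18.2, 15.6, 22.5, 18.5 and 14.5 CPM in mice 1 to 5. On the same list, Cpa1, Try4 and Amy2a5 had no count in any liver, where 0 counts allow up to 3 counts per library. These limits cover counting error only. Bile duct genes such as Krt19 and Krt7 lay at 0.349 to 2.93 CPM.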

How the data were processed

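The authors isolated RNA from snap-frozen livers, prepared stranded libraries from polyadenylated RNA and sequenced them in 2 runs. Per the labels and the study's methods, reads were aligned to GRCm38.p6 with STAR 2.6 and counted per Ensembl gene with HTSeq 0.10.0. The deposited values are raw counts, with no normalization. The strand setting, the annotation release and the run of each library are not given in the sources used here, and overlapping or near-identical genes are uncertain.

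Of 20 columns, the 5 HFD control columns were used and the other 15 were not. The member rule, the gene lists and the tests were chosen with earlier results of these data known. Counts were scaled with TMM in edgeR 4.0.16 (R 4.3.3) over the 5 libraries alone. Spread is the SD of log2 CPM (prior count 2) and the ratio of the highest to the lowest mouse at a mean of at least 5 CPM, with counts under 3 set to 3. With 1 group there is no comparison and no p-value. Gene symbols, exon lengths and GC content are from GENCODE M21 (21754 of 21780 genes matched). GC correction subtracted a spline with 6 degrees of freedom from each library. The scripts were tested on simulated data. Genes were named by a rule: the 15 highest by mean CPM and the 10 highest per length, the 20 most and 10 least variable, and up to 4 members of each list (2 highest, 2 most variable). Further genes were added after their values were seen, as were the adrenal, brown fat, smooth muscle and growth hormone lists. Mitochondrially encoded mRNAs and most cytosolic ribosomal protein genes were not analysed here and are not part of the library totals. Some genes are not reported here.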

Additional observations from a re-analysis of the deposited data

Results flagged for a closer look

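A sample was flagged where it lay so far from the other 4 mice that its gap to the nearest took most of the whole range, by Dixon's criterion for 5 values. Of 206 results examined, 38 met it. Chance flags about 1 in 20 groups, but this rate is no yardstick for the tally, since the 20 genes of largest spread and the adrenal and smooth muscle lists were chosen for values that stood out. Mouse 4 accounted for 26 of the 38 and mouse 5 for 12.

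The mouse 4 library was flagged for 3 lists. Adrenal cortex genes summed to 2405 CPM against 57.2 to 69.1 CPM, adrenal medulla genes to 1521 CPM against 63.0 to 91.0 CPM, and skeletal muscle genes to 66.3 CPM against 0.773 to 1.51 CPM. The single genes of steroid synthesis and of steroid-producing cells were Hsd3b1 (570 CPM), Cyp11a1 (330 CPM), Cyp11b1 (233 CPM), Nr5a1 (27.7 CPM), Akr1cl (66.4 CPM), Kcnk9 (62.7 CPM), Star (613 CPM), Akr1b7 (245 CPM), Mgarp (32.3 CPM), Prss35 (30.6 CPM) and Dlk1 (39.0 CPM). Of these, the first 6 had no count in the other mice, and none of the 11 was above 1.90 CPM there. Chromaffin cell genes were Chgb (695 CPM), Scg2 (263 CPM), Chga (218 CPM), Th (80.1 CPM), Dbh (76.3 CPM) and Npy (76.1 CPM), none above 0.0862 CPM in the other mice. Ucp1 was measured at 29.1 CPM and Fabp4 at 171 CPM. Also flagged in this library were Cyp51 (36.5 CPM, others 12.2 to 17.9), Hspa1a (26.0 CPM, others 0.416 to 4.27), Cd9 (23.2 CPM, others 14.96 to 17.3) and Socs2 (72.9 CPM, others 8.87 to 24.5).

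Mouse 5 was flagged for the sums of the glucose genes (12259 CPM, others 7580 to 8891), acute phase proteins (14709 CPM, others 9511 to 10572) and smooth muscle genes (124 CPM, others 17.9 to 28.5). Its single genes were Dmbt1 (26.8 CPM, no count in the others), Saa2 (567 CPM), Igfbp1 (770 CPM), Pck1 (3883 CPM), Chac1 (13.9 CPM), Acta2 (35.96 CPM), Myh11 (27.8 CPM) and Tagln (26.2 CPM). Fam114a2, among the 10 steadiest genes, was flagged at 46.8 CPM against 44.8 to 45.2 CPM, a gap that is large beside a small range.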

How the results depend on the processing

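Leaving out each mouse in turn gave 741 to 1234 genes with a 2-fold range and a median SD of 0.19 to 0.23, and the library that moved them was mouse 4 (741 genes and 0.19 without it, against 1332 and 0.22 with it). The minimum level set the count: it was 2619 at 1 CPM (median SD 0.25), 608 at 20 CPM (0.20) and 5135 with no minimum other than 10 counts (0.30). GC correction lowered the median SD to 0.20 and the count to 1074, and RLE size factors or the plain total gave 1352 and 1387. Per length, the 10 highest genes held 29.6% in place of 18.5%, and 49.4 genes in place of 153 held 50%. The GC slope of mouse 3 changed sign to 0.0026 at a minimum of 20 CPM, so it is not distinct from 0. Of 39 list counts, 12 moved by over 1.5 times without mouse 4 and 3 with GC correction, and 2 of the 20 most variable genes were shared with the ranking without mouse 4. The alternative without mitochondrially encoded genes was not run, as none is in the rows analysed. No paired analysis was possible because the values come from 1 group with no test. With 5 mice, an SD is itself imprecise, and genes under 5 CPM were not ranked.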

Other observations

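The genes named here lie outside the lists and were chosen after their values were seen. Egfr, the epidermal growth factor receptor gene of hepatocytes, was measured at 57.4, 176, 468, 768 and 640 CPM in mice 1 to 5, a 13.4-fold range and 11.2-fold without mouse 4. The order of the mice was that of the male-biased sum, and the reverse of that of the GC slopes and library totals. The part of these measures was not tested. Mug1, a protease inhibitor of mouse plasma, ran in the same order at 2267, 2933, 3882, 5821 and 4706 CPM, and Slc22a7, an organic anion transporter of the liver, ended with the same 3 mice above the other two, at 12.9, 19.6, 43.2, 51.0 and 48.1 CPM.

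Some genes of high level varied little. Eef1a1, a translation elongation factor, was measured at 3020 CPM with a coefficient of variation of 4.93%, and Mat1a, which makes S-adenosylmethionine, at 5369 CPM with 7.48%. The carboxylesterase gene Ces3a (2357 CPM, 5.71%) and the urate oxidase gene Uox (2183 CPM, 5.91%) were similar. Gsta3, a glutathione transferase, varied more, at 1808, 1767, 1466, 544 and 1007 CPM in mice 1 to 5.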
